A study of Mus musculus with 6 samples.

Results

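The genes described here are 10 functional markers of astrocytes: SLC1A2, SLC1A3, GLUL, AQP4, GJA1, S100B, ALDH1L1, APOE, CLU and GFAP. They were taken by symbol as a list of astrocyte markers, and each matched 1 of the 23282 gene rows of the deposited tables. Astrocytes of an Ink4a/Arf-/- mouse line had been transfected with pcDNA3.1-puro, an empty vector, to give 3 control libraries, and with pcDNA3.1-JAG1-puro to give 3 JAG1-overexpressing libraries. Every library came from the same labelled cell line, which lacks a tumor suppressor locus that halts the cell cycle, and from culture in DMEM with fetal bovine serum, L-glutamine and antibiotics. The genotype WT on the control labels was taken to mean no added JAG1, and whether a group's libraries came from separate transfections, or from a clone, is not in the labels, so that p-values measure only the spread between these libraries, which may be technical. Library preparation was by QuantSeq 3' mRNA, in which reads come from the end of a transcript and do not rise with its length. Levels in CPM, the reads of a gene scaled to those of its library, are therefore set side by side between genes without scaling by length. Whether the transcript ends of different genes are counted equally well was not tested.

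Astrocytes clear glutamate from synapses through the transporters encoded by SLC1A2 and SLC1A3 and turn it into glutamine with the enzyme encoded by GLUL. They buffer water at the vessel wall through AQP4, pass ions and metabolites to each other through GJA1 gap junctions, and secrete the lipid carriers APOE and CLU. GFAP, S100B and ALDH1L1 are used to identify them in tissue, and GFAP rises in reactive astrocytes.

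Of the 10 genes, GJA1, GLUL, APOE and ALDH1L1 had enough reads in both groups to be tested, and 4 of these 4 were lower in JAG1-overexpressing astrocytes, beside 27.7% of all genes tested. CLU and S100B had enough reads in the control alone, so that they could be tested only because they were higher there, and they were called lower as well. GJA1 fell 1.56-fold, GLUL 1.76-fold, APOE 1.75-fold, ALDH1L1 3.80-fold, CLU 4.84-fold and S100B 3.42-fold. The other 4 genes, SLC1A2, SLC1A3, AQP4 and GFAP, had 3 reads or fewer in every library of both groups. Cells labelled astrocytes thus lacked reads from GFAP and AQP4 and had almost none from the glutamate transporters, with and without added JAG1.

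The 6 libraries held between 14341634 and 20489062 reads counted on genes, and 11712 genes passed the filter on low counts. Of these, 27.4% were called higher and 27.7% lower in the JAG1-overexpressing group (adjusted p under 0.05), from edgeR's quasi-likelihood test with Benjamini-Hochberg adjustment over all genes tested, so that a fall is common in this comparison. The groups stood apart: Pearson's correlation of log2 CPM across genes was between 0.989 and 0.994 within a group and between 0.911 and 0.920 between groups. Across the libraries 3 reads equal 0.148 to 0.206 CPM, and a count of 0 allows a level up to that limit, which covers counting error only. JAG1 itself, a NOTCH ligand, had 182, 201 and 214 reads in control and 304, 197 and 227 in JAG1-overexpressing libraries, or 10.3 ± 1.17 and 14.2 ± 0.862 CPM (SD, n = 3), with a log2 fold change of 0.46 (SE, the standard error, 0.11, adjusted p = 0.00446). Reads from the end of the mouse transcript need not come from a cDNA carried on a plasmid, so this difference does not check the label. The genes of chromosomes 15 and 19 shifted as a whole between the groups, and any other difference between the 2 transfected populations cannot be told apart from that of added JAG1.

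None of the markers was called higher: 0 of the 6 tested rose in edgeR, with an adjusted or an unadjusted p under 0.05, and 0 rose in DESeq2 or limma-voom. Over all genes tested, 27.4% were called higher in edgeR. Of the 6, CLU and S100B were tested only because of their control level, so that the count bears on the other 4 alone. In bulk RNA, fewer cells that express a gene and less of its RNA in each cell cannot be told apart.

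Promoters of 5 members are shown: those of GJA1 and GLUL, the most abundant members, and those of ALDH1L1, S100B and GFAP, which hold the RBPJ core, GFAP being a member with no reads. For 8 of the 10 genes, promoters from the RefSeq tables of GRCm38.p6 were searched, 10 promoters in all, 3 of them APOE's. No promoter of the remaining members was searched. The 250 bases before each start were searched on both strands for the core of the RBPJ site, TGGGAA, through which NOTCH acts on its targets, for the SMAD element GTCTG, and for the STAT element TTCNNNGAA. Capitals mark a match, written as it reads on the gene's own strand, and no matches overlapped. Each sequence runs 5' to 3' on the strand of its gene and ends at the base before the start.
GJA1 (chr10:56377050-56377299, plus strand): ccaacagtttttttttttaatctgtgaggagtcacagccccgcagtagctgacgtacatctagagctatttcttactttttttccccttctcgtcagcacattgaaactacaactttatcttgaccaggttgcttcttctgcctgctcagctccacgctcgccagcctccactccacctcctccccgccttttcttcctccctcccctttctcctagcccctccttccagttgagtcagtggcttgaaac
GLUL (chr1:153899679-153899928, plus strand): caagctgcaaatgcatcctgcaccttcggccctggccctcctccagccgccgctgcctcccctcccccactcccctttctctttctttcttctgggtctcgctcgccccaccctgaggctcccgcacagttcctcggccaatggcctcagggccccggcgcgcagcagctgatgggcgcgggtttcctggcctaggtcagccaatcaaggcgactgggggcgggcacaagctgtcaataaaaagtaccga
ALDH1L1 (chr6:90550543-90550792, plus strand): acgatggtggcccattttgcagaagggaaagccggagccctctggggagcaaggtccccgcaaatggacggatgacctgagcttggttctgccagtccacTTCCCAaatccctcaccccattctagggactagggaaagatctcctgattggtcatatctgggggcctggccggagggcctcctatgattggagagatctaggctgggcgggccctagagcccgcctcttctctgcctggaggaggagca
S100B (chr10:76253586-76253835, plus strand): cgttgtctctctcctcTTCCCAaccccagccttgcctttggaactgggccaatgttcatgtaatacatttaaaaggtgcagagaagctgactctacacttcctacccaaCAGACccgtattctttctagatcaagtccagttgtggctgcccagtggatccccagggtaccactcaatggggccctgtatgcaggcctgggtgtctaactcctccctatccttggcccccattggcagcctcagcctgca
GFAP (chr11:102897201-102897450, minus strand): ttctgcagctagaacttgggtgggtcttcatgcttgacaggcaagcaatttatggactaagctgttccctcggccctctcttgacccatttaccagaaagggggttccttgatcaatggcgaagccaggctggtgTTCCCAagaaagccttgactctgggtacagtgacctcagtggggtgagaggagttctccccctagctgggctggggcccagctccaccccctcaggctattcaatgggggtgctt
The GLUL promoter held 15 CpG dinucleotides and 64.8% GC, beside medians of 6 and 52.4% over 32851 promoters, whereas GJA1 had 6 and 50%, ALDH1L1 7 and 59.6%, and S100B and GFAP 2 each. The RBPJ core lay 150 bases upstream of ALDH1L1, 234 upstream of S100B and 115 upstream of GFAP, and 21.6% of the 32851 promoters hold it. S100B also held the SMAD element 141 bases upstream, as 42.2% of promoters do. Among the promoters not shown, that of SLC1A3 held the STAT element 96 bases upstream, which 7.02% of promoters hold, and 1 of APOE's held the SMAD element 135 bases upstream. None of these letters was found in the windows of SLC1A2, GJA1 and GLUL. The SLC1A2 window (chr2:102706188-102706437, plus strand) lies inside the gene, which starts at 102658239. The 3 windows of APOE, on the minus strand, also lie inside their gene. For these 2 genes the bases before the outermost start were not searched. Members that fell were thus found with a match and without one.

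The glutamate transporters were at the limit of detection in both groups. SLC1A2, the main glutamate transporter of the adult forebrain (chr2:102658239-102790784), had 2, 2 and 0 reads in control and 1, 2 and 1 in JAG1-overexpressing libraries. SLC1A3, the transporter of developing and cerebellar astrocytes (chr15:8634124-8710807), had 2, 0 and 2 reads in control and 0 in each JAG1-overexpressing library. All of these values lie at or under the limit of detection, so no fold change is given, and a difference was not detectable at this depth (two-sided exact permutation test, p = 0.8 for SLC1A2 and 0.4 for SLC1A3, where the smallest p that 3 libraries against 3 allow is 0.1). On chromosome 15, where SLC1A3 lies, 346 of the 459 tested genes were lower in JAG1-overexpressing astrocytes, and the median log2 fold change of the 459 was −0.53. The part of that shift in the reads of SLC1A3 was not tested.

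GLUL, which encodes glutamine synthetase (chr1:153899929-153909723), was by contrast well expressed and fell. It had 548, 457 and 552 reads in control and 302, 230 and 245 in JAG1-overexpressing libraries. As levels these were 27.0, 24.5 and 28.9 CPM in control and 15.0, 15.8 and 14.9 CPM in JAG1-overexpressing libraries, with no overlap and little spread in either group. Its mean went from 26.8 ± 2.18 to 15.2 ± 0.503 CPM (SD, n = 3), with a log2 fold change of −0.82 (SE 0.09, 95% interval −1.01 to −0.62, adjusted p = 1.42e-05), and no library carried the result, which ran from −0.87 to −0.77 as each was left out. The last 300 bases of its transcripts align over at least 200 bases at 90% identity or more to 3 copies elsewhere in the genome, the closest at 96.0% and one of them the pseudogene GLNS-PS1, so that the split of reads between GLUL and its copies is uncertain. The gene TEDDM2 also overlaps an exon of GLUL on the other strand.

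The genes around GLUL moved in both directions. Of 18 genes of the glutamate-glutamine cycle, 12 were tested, 4 were higher, 5 were lower and 3 passed neither way, and the median log2 fold change was −0.09 beside 0.00386 over all genes tested. The shares over all genes tested, to be set beside the counts of this list and of those below, were 27.4% higher and 27.7% lower. GOT1, the cytosolic aspartate aminotransferase, rose by 0.88 on the log2 scale (SE 0.06, adjusted p = 5.50e-07). The glutamine carriers SLC38A2 and SLC38A1 fell by 0.81 (SE 0.06, adjusted p = 3.65e-07) and 0.64 (SE 0.06, adjusted p = 4.47e-06) on the same scale.

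Some of these changes lie on chromosomes that shifted as a whole. SLC38A2 and SLC38A1 are on chromosome 15, and less the median of the other tested genes there their log2 fold changes were −0.28 and −0.11. GOT1 is on chromosome 19, on which 313 tested genes of 422 were higher and the median log2 fold change was 0.61, and less that median its log2 fold change was 0.27. GLUL is on chromosome 1, where the other tested genes had a median of −0.00894.

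**Figure D1:**
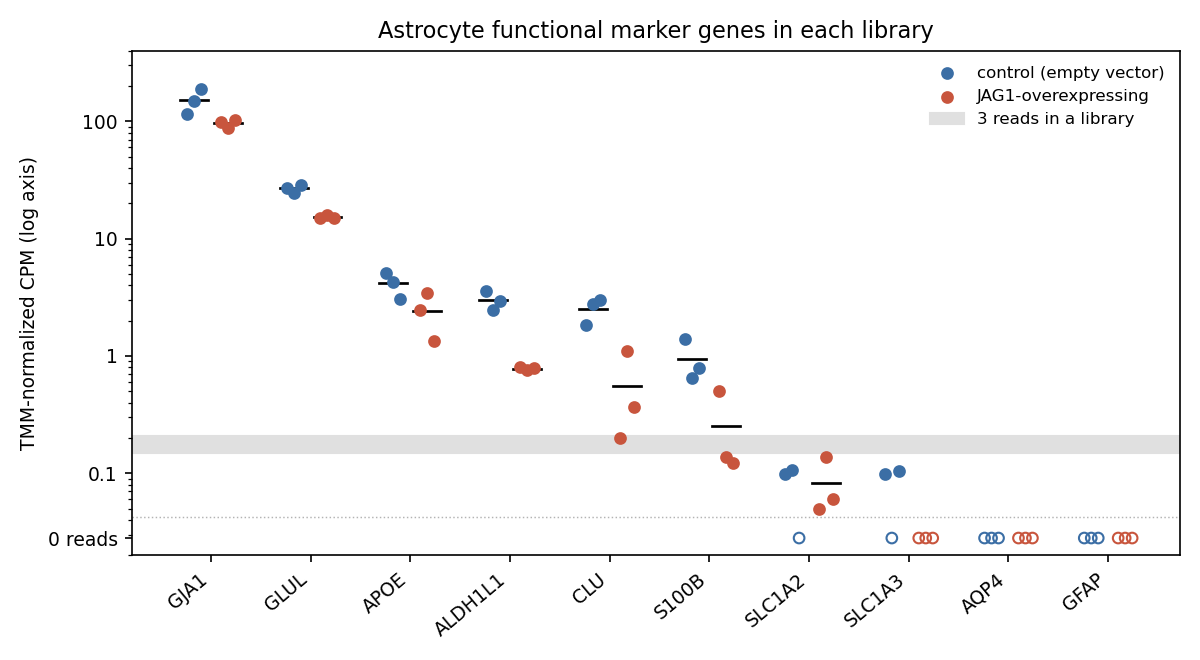
Level of each marker gene in each library, as TMM-normalized CPM on a log axis, with 3 control libraries (blue) and 3 JAG1-overexpressing libraries (red) per gene. Black lines are group means where no library is at 0, open circles are libraries with 0 reads, and the grey band spans the CPM of 3 reads over the 6 libraries. GJA1 and GLUL stand above the rest, the groups overlap for APOE, and SLC1A2, SLC1A3, AQP4 and GFAP lie below the band.

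GJA1, which encodes connexin 43, the main gap junction protein of astrocytes (chr10:56377300-56390419), was the most abundant of the markers in both groups. It had 2354, 2779 and 3589 reads in control and 1992, 1265 and 1708 in JAG1-overexpressing libraries. The levels were 116, 149 and 188 CPM in control and 99.2, 87.0 and 104 CPM in JAG1-overexpressing libraries. The groups did not overlap, but the control libraries differed among themselves by more than the gap between the groups. Its mean fell from 151 ± 35.8 to 96.6 ± 8.64 CPM (SD, n = 3), with a log2 fold change of −0.64 (SE 0.14, 95% interval −0.95 to −0.34, adjusted p = 0.00229), and leaving out single libraries moved it between −0.80 and −0.46, always past the threshold.

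GJA1 had more reads than any of the other connexins listed. Of 19 other connexins, pannexins and junction partners, 7 had 0 reads in every library, among the 12 that were not tested. Of the 7 tested, 3 were higher and 4 were lower, and the median log2 fold change was −0.22. TJP3, a scaffold protein of tight junctions, had a log2 fold change of 0.72 (SE 0.26, adjusted p = 0.0371), a call that was lost with any of 4 libraries left out (highest adjusted p = 0.131). PANX1, a channel protein that releases ATP, fell by 0.71 (SE 0.08, adjusted p = 1.48e-05) on the log2 scale.

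AQP4, the water channel that astrocytes concentrate at their endfeet (chr18:15389394-15410982), had 0 reads in all 6 libraries, which allows at most 0.148 to 0.206 CPM per library. KCNJ10, MLC1 and HEPACAM, which sit with AQP4 at the endfoot and are named here after their values were seen, had means of 0.0174 CPM or less in both groups. Of the scaffold that anchors AQP4, some genes were expressed, but DMD, dystrophin itself, had 1 read in each group and SNTB1 had 0 in all libraries, both named after their values were seen. Of 22 genes of water channels and of the endfoot complex, 15 were tested, 8 were higher, 3 lower and 4 passed neither way, and the median log2 fold change was 0.25.

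DTNB, which encodes beta-dystrobrevin, had 42, 48 and 51 reads in control and 260, 219 and 211 in JAG1-overexpressing libraries, a log2 fold change of 2.48 (SE 0.14, adjusted p = 8.32e-08). TRPV4, a calcium channel that opens on cell swelling, nearly vanished, with 177, 164 and 147 reads in control and 4, 2 and 2 in JAG1-overexpressing libraries, a log2 fold change of −5.69 (SE 0.25, adjusted p = 9.69e-09). AGRN, the endfoot proteoglycan agrin, fell by 1.06 on the log2 scale (SE 0.11, adjusted p = 7.84e-06). Of the other 5 water channels listed, 2 were abundant and are given here although the naming rule did not pick them: AQP1 rose from 268 ± 17.7 to 488 ± 12.8 CPM and AQP5, on chromosome 15, fell from 180 ± 16.1 to 114 ± 6.66 CPM (SD, n = 3; log2 fold changes 0.86 and −0.66, adjusted p = 2.40e-07 and 1.46e-05).

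S100B, a calcium-binding protein that astrocytes secrete (chr10:76253836-76261319), was the least abundant of the tested markers. It had 28, 12 and 15 reads in control and 10, 2 and 2 in JAG1-overexpressing libraries, or 1.38, 0.644 and 0.784 CPM and 0.498, 0.138 and 0.121 CPM. Every JAG1-overexpressing library lay below every control library, and 2 of them were at 2 reads, under the limit of detection. The log2 fold change was −1.77 (SE 0.54, 95% interval −2.97 to −0.58, adjusted p = 0.0166). The call rested on single libraries: it was lost without control replicate 1 (−1.37, adjusted p = 0.0590), JAG1-overexpressing replicate 2 (−1.51, adjusted p = 0.0633) or JAG1-overexpressing replicate 3 (−1.44, adjusted p = 0.0693), and without JAG1-overexpressing replicate 1 the log2 fold change was −2.80.

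Among the other S100 genes some rose and some fell. Of 18 genes for S100 proteins, a receptor and partners, 11 were tested, 4 were higher, 2 lower and 5 passed neither way, and the median log2 fold change was 0.10. S100A1, a close relative of S100B, rose from 12.6 ± 0.0787 to 24.2 ± 0.679 CPM (SD, n = 3; log2 fold change 0.94, SE 0.08, adjusted p = 2.08e-06). AHNAK, a giant scaffold that binds S100 proteins, rose by 0.49 on the log2 scale (SE 0.06, adjusted p = 7.13e-05), less than the median of 0.61 for the other tested genes on its chromosome, 19. S100A16 had 44, 39 and 28 reads in control and 2, 2 and 4 in JAG1-overexpressing libraries, a log2 fold change of −3.55 (SE 0.41, adjusted p = 2.49e-05), and S100A3 fell by 1.20 on the log2 scale (SE 0.12, adjusted p = 5.21e-06).

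ALDH1L1, the cytosolic 10-formyltetrahydrofolate dehydrogenase and a widely used astrocyte marker (chr6:90550768-90599171), had 72, 46 and 56 reads in control and 16, 11 and 13 in JAG1-overexpressing libraries. The levels were 3.55, 2.47 and 2.93 CPM in control and 0.797, 0.757 and 0.789 CPM in JAG1-overexpressing libraries. The groups lay far apart, and the control libraries were spread more widely than the JAG1-overexpressing ones. The mean went from 2.98 ± 0.545 to 0.781 ± 0.0215 CPM (SD, n = 3), with a log2 fold change of −1.92 (SE 0.25, 95% interval −2.48 to −1.37, adjusted p = 6.17e-05). Leaving out single libraries moved it between −2.04 and −1.78. An antisense gene and a lincRNA of the annotation overlap exons of ALDH1L1, and whether the counting used strand is not given in the sources used here, so that reads of these genes cannot be told apart.

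The rest of folate metabolism moved in both directions. Of 26 other enzymes and carriers of folate one-carbon metabolism, 22 were tested, 5 were higher, 5 lower and 12 passed neither way, and the median log2 fold change was 0.04. The mitochondrial enzyme MTHFD1L rose by 0.97 on the log2 scale (SE 0.05, adjusted p = 7.18e-08), and GGH, which trims folate polyglutamates, rose by 0.86 on the log2 scale (SE 0.12, adjusted p = 0.000101). GART, of purine synthesis, fell by 0.51 (SE 0.05, adjusted p = 6.76e-06) on the same scale. ALDH1L2, the mitochondrial counterpart of ALDH1L1, had a log2 fold change of −0.25 (SE 0.09, adjusted p = 0.0433). Per read of ALDH1L2 there were 0.130, 0.0816 and 0.0836 reads of ALDH1L1 in control and 0.0297, 0.0300 and 0.0306 in JAG1-overexpressing libraries, a ratio formed after the values were seen.

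APOE and CLU encode the lipid-carrying apolipoproteins E and J, which astrocytes secrete. APOE (chr7:19696244-19701310) had 103, 80 and 59 reads in control and 49, 50 and 22 in JAG1-overexpressing libraries, or 5.08, 4.29 and 3.08 CPM and 2.44, 3.44 and 1.34 CPM. The groups overlapped, since JAG1-overexpressing replicate 2 lay above control replicate 3. The mean went from 4.15 ± 1.01 to 2.41 ± 1.05 CPM (SD, n = 3), with a log2 fold change of −0.80 (SE 0.29, 95% interval −1.45 to −0.16, adjusted p = 0.0361). This was the least certain of the 6 changes: the call was lost without control replicate 1 (−0.63, adjusted p = 0.0764), control replicate 2 (−0.78, adjusted p = 0.0886), JAG1-overexpressing replicate 1 (−0.82, adjusted p = 0.0873) or JAG1-overexpressing replicate 3 (−0.52, adjusted p = 0.129).

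CLU, also a secreted chaperone (chr14:65968483-65981548), had 37, 52 and 57 reads in control and 4, 16 and 6 in JAG1-overexpressing libraries. Its levels were 1.83, 2.79 and 2.98 CPM in control and 0.199, 1.10 and 0.364 CPM in JAG1-overexpressing libraries. All JAG1-overexpressing libraries lay below all control libraries, with replicate 2 well above the other two. The log2 fold change was −2.27 (SE 0.45, 95% interval −3.26 to −1.29, adjusted p = 0.00124). Without JAG1-overexpressing replicate 2 it was −3.17, and the call held whichever library was left out (highest adjusted p = 0.00928).

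Genes that load, bind and take up lipoproteins moved in both directions. Of 34 genes of lipoprotein transport, 19 were tested, 7 were higher, 4 lower and 8 passed neither way, and the median log2 fold change was 0.08. ABCA1, which loads cholesterol onto APOE, had 27, 15 and 7 reads in control and 209, 166 and 183 in JAG1-overexpressing libraries, a log2 fold change of 3.69 (SE 0.26, adjusted p = 4.06e-07). MYLIP, a ubiquitin ligase that degrades lipoprotein receptors, rose by 1.84 on the log2 scale (SE 0.37, adjusted p = 0.00151). SORT1, a sorting receptor that binds APOE, fell by 1.48 on the log2 scale (SE 0.23, adjusted p = 0.000248). NR1H3, which encodes LXR-alpha, an activator of ABCA1, MYLIP and APOE, had a log2 fold change of −0.99 (SE 0.22, adjusted p = 0.00284).

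**Figure D2:**
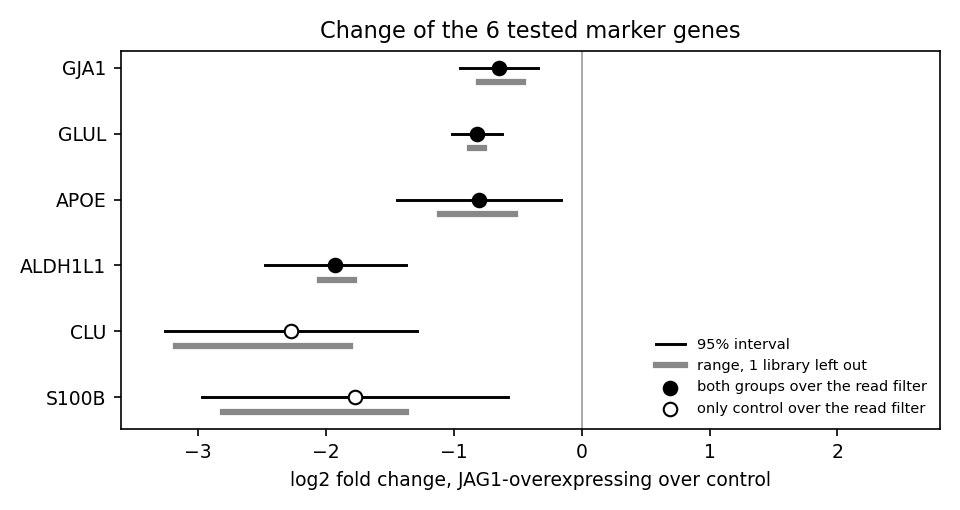
Log2 fold change of the 6 tested marker genes, JAG1-overexpressing over control. Circles are the estimates of edgeR's quasi-likelihood fit over 6 libraries, filled where both groups were over the read filter and open where only the control was, black lines are 95% intervals, and grey bars span the values with 1 library left out at a time. All 6 intervals lie below 0, and that of APOE comes closest to it, at −0.16. The estimates run from −0.64 for GJA1 to −2.27 for CLU, and the bars of S100B and CLU are the widest.

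GFAP, the intermediate filament protein by which astrocytes are most often identified (chr11:102887336-102897200), had 0 reads in all 6 libraries, as AQP4 did. Other intermediate filament genes were expressed: VIM, which encodes vimentin, was at 3104 ± 221 CPM in control and 3212 ± 38.3 CPM in JAG1-overexpressing astrocytes (SD, n = 3; log2 fold change 0.05, adjusted p = 0.496), and is named here after its values were seen. Of 20 genes of intermediate filaments and their linkers, 12 were tested, 2 were higher, 7 lower and 3 passed neither way, and the median log2 fold change was −0.19. The keratin KRT19, known from simple epithelia, had 1, 7 and 4 reads in control and 269, 195 and 218 in JAG1-overexpressing libraries, a log2 fold change of 5.96 (SE 0.27, adjusted p = 1.12e-08) that was 6.64 without control replicate 2.

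The muscle-type filament genes went the other way. DES, which encodes desmin, had 148, 136 and 107 reads in control and 20, 11 and 9 in JAG1-overexpressing libraries, a log2 fold change of −3.10 (SE 0.23, adjusted p = 7.41e-07). SYNM, which encodes synemin, a partner of desmin and GFAP, fell by 2.93 on the log2 scale (SE 0.39, adjusted p = 7.28e-05). LMNB2, a nuclear lamin, had a log2 fold change of 0.23 (SE 0.09, adjusted p = 0.0438), a call lost with any of 5 libraries left out (highest adjusted p = 0.154).

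The order of the levels was alike in both groups. In control astrocytes GJA1, at 116 to 188 CPM, stood above GLUL, at 24.5 to 28.9 CPM, which stood above the other tested markers. APOE (3.08 to 5.08 CPM), ALDH1L1 (2.47 to 3.55 CPM) and CLU (1.83 to 2.98 CPM) followed, each overlapping its neighbour, and S100B was below them at 0.644 to 1.38 CPM. In JAG1-overexpressing astrocytes GJA1 (87.0 to 104 CPM), GLUL (14.9 to 15.8 CPM) and APOE (1.34 to 3.44 CPM) stood apart from each other. ALDH1L1 (0.757 to 0.797 CPM) lay within the range of CLU (0.199 to 1.10 CPM), which overlapped that of S100B (0.121 to 0.498 CPM). The markers that lie on chromosomes other than 15 and were tested did not share a shifted chromosome: the medians of the other tested genes on their chromosomes were between −0.02 and 0.04 on the log2 scale.

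Beyond the 10 markers, other genes enriched in astrocytes were also sparse. Of 50 such genes, 24 had 3 reads or fewer in every library, 10 of them 0 throughout, and 21 were tested. Of the tested genes 5 were higher, 12 lower and 4 passed neither way, beside 27.4% higher and 27.7% lower over all genes tested. The median log2 fold change was −0.27. PTGDS, a prostaglandin D synthase, rose from 6, 9 and 13 reads in control to 26, 31 and 30 in JAG1-overexpressing libraries, a log2 fold change of 1.82 (SE 0.36, adjusted p = 0.00127). FGFR3, a growth factor receptor of radial glia and astrocytes, had a log2 fold change of 0.88 (SE 0.30, adjusted p = 0.0271), which was lost with any of 3 libraries left out (highest adjusted p = 0.130).

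SLC4A4, the sodium bicarbonate cotransporter, had 39, 33 and 51 reads in control and 10, 9 and 6 in JAG1-overexpressing libraries, a log2 fold change of −2.10 (SE 0.32, adjusted p = 0.000200). ACSBG1, an acyl-CoA synthetase, fell by 1.91 on the log2 scale (SE 0.26, adjusted p = 8.87e-05). These 2 falls were of the size of those of ALDH1L1 and S100B. Like S100B, SLC4A4 had enough reads in the control alone, so that it could be tested only because it was higher there.

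Genes induced in reactive astrocytes, the state in which GFAP is known to rise, moved both ways. Of 39, 25 were tested, 7 were higher, 11 lower and 7 passed neither way, and the median log2 fold change was −0.17. STAT3, the transcription factor that drives GFAP in reactive astrocytes, rose from 21.3 ± 0.504 to 39.3 ± 2.84 CPM (SD, n = 3; log2 fold change 0.88, SE 0.08, adjusted p = 2.92e-06), while GFAP stayed at 0 reads. CD44, a hyaluronan receptor, rose by 0.71 on the log2 scale (SE 0.06, adjusted p = 1.83e-06).

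B3GNT5, a glycolipid enzyme, had 69, 75 and 95 reads in control and 0 in every JAG1-overexpressing library, so that it was at least 20.0-fold lower against a limit of 3 reads per library. FBLN5, a matrix protein, fell by 2.58 on the log2 scale (SE 0.31, adjusted p = 3.58e-05). In all, 142 of the 242 genes of the 9 lists were tested, of which 45 were higher and 53 lower. Over all genes tested, 27.4% were higher and 27.7% lower. Some of the list genes had enough reads in a single group and could be tested only because they were high there. Among them, TRPV4, S100A16, SYNM, SLC4A4, FBLN5 and B3GNT5 passed the filter through the control. KRT19, ABCA1 and PTGDS passed it through the JAG1-overexpressing group. Chromosome 15 held 5 of the lower genes and chromosome 19 held 4 of the higher ones.

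**Figure D3:**
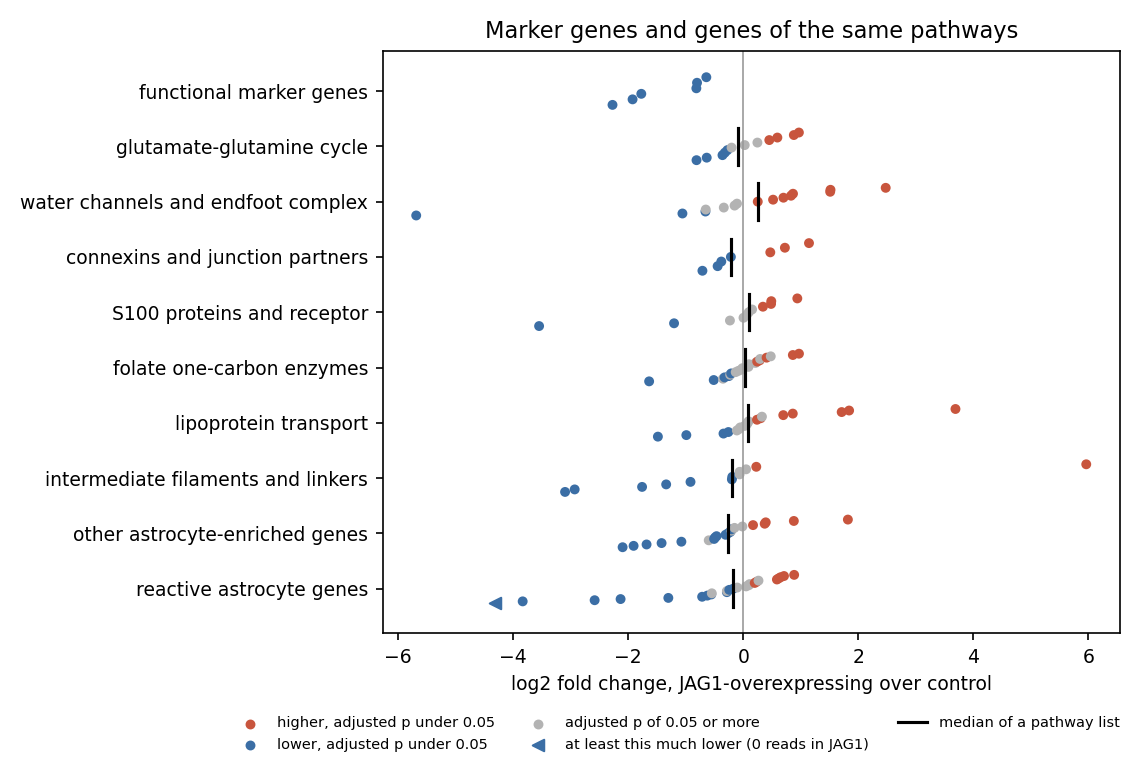
Log2 fold change, JAG1-overexpressing over control, of the tested marker genes and of the tested genes of 9 lists built around them, 1 point per gene. Red points were higher and blue points lower at an adjusted p under 0.05, grey points passed neither way, the triangle marks a gene with 0 reads in JAG1-overexpressing libraries at its limit, and black ticks are list medians, which run from −0.27 to 0.25. Each list has genes on both sides of 0, and of the marker genes to the left of 0, CLU and S100B were tested only because of their control level.

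Markers of other cell types were read in the same libraries, since the labels give astrocytes alone. Of 12 neuronal markers, 8 had 3 reads or fewer in every library and 4 were at 0, among them SNAP25 and SYT1, while their summed level was 100 to 110 CPM in control and 58.7 to 61.7 CPM in JAG1-overexpressing libraries. That sum was set by TUBB3 and MAP2, genes of the microtubule cytoskeleton: TUBB3 fell from 78.1 ± 4.67 to 8.40 ± 0.550 CPM and MAP2 rose from 25.1 ± 1.07 to 51.3 ± 1.13 CPM (SD, n = 3; log2 fold changes −3.21 and 1.03, adjusted p = 2.78e-10 and 2.78e-07). Oligodendrocyte markers summed to 5.07 to 6.82 CPM in control and 4.68 to 5.22 CPM in JAG1-overexpressing libraries, with 9 of 12 at 3 reads or fewer and MOG, MAG and SOX10 at 0. Microglial markers summed to 15.5 to 16.9 and 14.8 to 16.4 CPM, with 5 of 12 at 3 reads or fewer.

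Endothelial markers summed to 2.27 to 3.81 CPM in control and 5.71 to 6.19 CPM in JAG1-overexpressing libraries, with 7 of 10 at 3 reads or fewer and TEK, VWF, TIE1 and EMCN at 0. FLT1, named after its values were seen, set that rise, with 18, 30 and 27 reads in control and 89, 64 and 78 in JAG1-overexpressing libraries (log2 fold change 1.80, adjusted p = 3.70e-05), whereas ESAM was at 1.54 ± 0.323 and 1.27 ± 0.0291 CPM (SD, n = 3). Ependymal markers summed to 0.261 to 0.296 CPM in control and 1.03 to 1.15 CPM in JAG1-overexpressing libraries, with 4 of 6 at 3 reads or fewer. The only one tested, TMEM212, had 0, 0 and 1 reads in control and 18, 10 and 10 in JAG1-overexpressing libraries and was called higher (adjusted p = 0.000227), and is named here after its values were seen. TMEM212 could be tested only because of its level in the JAG1-overexpressing libraries. The markers of mural cells and fibroblasts were the abundant ones and moved with the groups, at 822 to 858 CPM in control and 316 to 364 CPM in JAG1-overexpressing libraries. Of these 12, 7 were tested, 5 were lower and 1 higher, whereas RGS5, KCNJ8, LUM and THY1 were at 0 in every library.

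ACTA2, smooth muscle actin, fell from 310 ± 6.25 to 39.4 ± 2.49 CPM (SD, n = 3; log2 fold change −2.98, adjusted p = 5.31e-11), and the collagens COL3A1 and COL1A1 had log2 fold changes of −1.70 and −0.53 (adjusted p = 2.23e-08 and 3.50e-05). The 1 that rose was the collagen COL1A2, named after its values were seen, with 70, 71 and 53 reads in control and 1067, 804 and 719 in JAG1-overexpressing libraries. Their part in the fall of the markers was not tested.

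**Figure D4:**
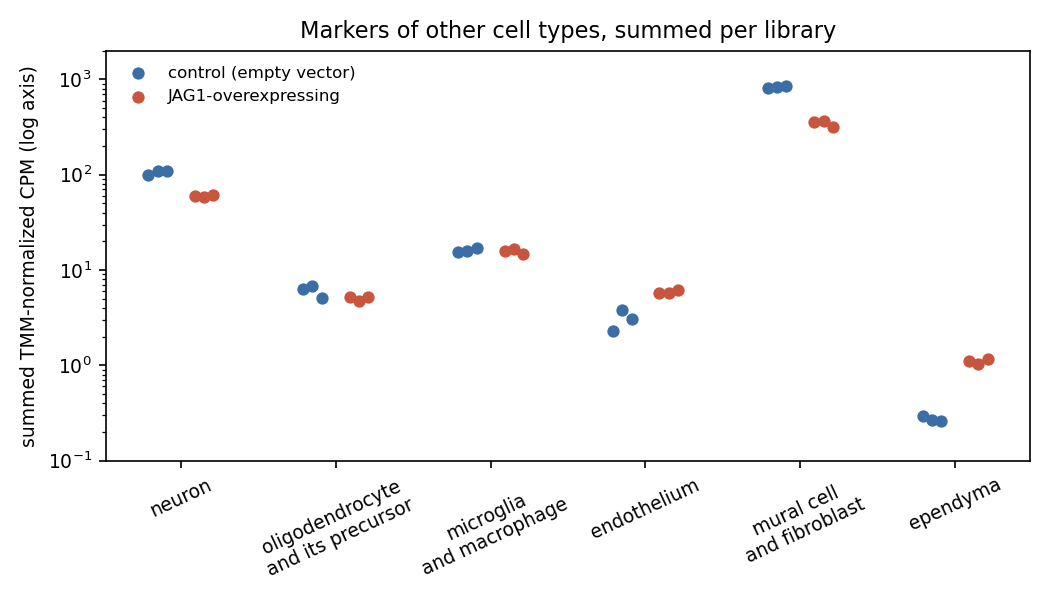
Summed level of the markers of 6 other cell types in each library, as TMM-normalized CPM on a log axis, with 3 control libraries (blue) and 3 JAG1-overexpressing libraries (red) per type. The sum for mural cells and fibroblasts is the highest and falls from 822 to 858 CPM in control to 316 to 364 CPM in JAG1-overexpressing libraries, and the neuronal sum falls from 100 to 110 to between 58.7 and 61.7 CPM.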

How the data were processed

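RNA was measured in 3 control and 3 JAG1-overexpressing libraries of Ink4a/Arf-/- mouse astrocytes, grouped by the labels. The authors deposited 1 table per library with raw read counts per gene and the log2 of their normalized counts. Per the submitters' processing notes, Bowtie2, bedtools and edgeR were used with GRCm38 and mm10; versions, annotation and strand setting are not given in the sources used here. Every result rests on the deposited counts; the deposited log2 values entered 1 alternative. Symbols were matched to RefSeq GRCm38.p6, 22059 by symbol and 1072 by synonym.

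The counts were analysed in R 4.3.3 with edgeR 4.0.16, using filterByExpr (minimum count 10), TMM factors, the quasi-likelihood test with no further term, and Benjamini-Hochberg adjustment over 11712 genes at a threshold of 0.05. Standard errors came from the F statistic, and CPM used TMM-normalized library sizes. Folds against a group at 0 used 3 reads per library as the limit. Alternatives were DESeq2 1.42.0, limma-voom (limma 3.58.1), other scalings, no filter, a limit of 2-fold, a block on replicate number, the chromosome's median, and leaving out each library. The test was checked on simulated data. Depth, between 14341634 and 20489062 reads, limits genes near 3 reads.

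The members and the lists of related and cell type genes were chosen with earlier results of these data known. All members and JAG1 were named, and from each related list, among tested genes averaging at least 1 CPM, up to 2 higher genes with the largest and 2 lower genes with the smallest log2 fold change; markers of other cell types were named where called with a mean of at least 10 CPM, up to 3 a type. Genes added after their values were seen are named as such, and some genes that the rule picked are not reported here.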

Additional observations from a re-analysis of the deposited data

How the results depend on the processing

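The fall of the 6 tested markers was seen under each alternative run, and none of the 84 values recomputed changed direction. Of these values 7, all with a library left out and all of APOE or S100B, were no longer past the threshold. All 84 values were recomputed from the same set of 6 libraries. CLU and S100B passed the filter only because they were higher in control. Their direction, here and in the counts that follow, is therefore not independent of the filter. With each library left out in turn, between 4 and 6 markers were lower and 0 higher. With a limit of 2-fold, 3 markers were lower (ALDH1L1, CLU and S100B), as were 994 of all genes with 639 higher, and in the related lists 20 were lower and 9 higher. Scaling by library size gave 3324 genes higher and 3130 lower, upper-quartile factors 2980 and 3460, DESeq2 2930 and 2997, and no filter 3388 and 3498 of 16774 genes. Without the filter SLC1A2 had a log2 fold change of 0.18 (adjusted p = 0.933) and SLC1A3 of −3.46 (adjusted p = 0.192) from edgeR, values that rest on 4 reads or fewer per group. The main fit did not pair libraries by replicate number. Same-numbered libraries of the 2 groups had correlations of their deviations of 0.148, 0.0614 and 0.119, and 6 of 6 libraries correlated best with their own number. What the numbers stand for was not tested. With a replicate block, 6 markers were lower, 3380 genes were higher and 3331 lower, and 48 and 54 genes of the related lists. Of the 41 other genes picked by the naming rule, 3 (TJP3, LMNB2 and FGFR3) lost their call with a library left out. Depth limits what can be said of SLC1A2, SLC1A3, AQP4 and GFAP: levels under 0.148 to 0.206 CPM could not be told from 0.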
